A study of Homo sapiens with 12 samples.

Results

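The proteasome is the barrel-shaped protease that degrades ubiquitin-tagged proteins, and 49 of the 34687 rows of the expression table carry the name of one of its subunits or regulators. They were all the rows whose name began with PSMA to PSMG followed by a digit. The rows divide into 19 of the 20S core (PSMA and PSMB), 21 of the 19S cap (PSMC and PSMD) and 9 of other regulators (PSME, PSMF and PSMG). One of the 19S rows, PSMC3IP, shares only the name, since it encodes a recombination factor, which leaves 48 proteasome genes. PSMD5, PSMD9 and PSMD10, also counted with the 19S cap here, encode chaperones of its assembly.

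Expression was measured on Illumina HumanHT-12 v4 BeadChips in HCT116, a human colorectal cancer line, and PANC1, a human pancreatic ductal carcinoma line. Cells received the solvent DMSO at 0.05%, ICG-001 at 10 uM or C646 at 10 uM, and were collected at 12 or 96 h. ICG-001 blocks the binding of the co-activator CBP to β-catenin, and C646 inhibits the acetyltransferase activity of CBP and p300. Each of the 12 combinations of line, treatment and time is 1 column of values, in which the authors averaged 2 arrays, while PANC1 ICG-001 12 h had 3. Values of single arrays were not used here, so no difference has an error or a test, and the number of arrays limits the precision.

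Inside the core, α subunits gate the entry and β subunits cut. Cutting is done by PSMB6 (β1), PSMB7 (β2) and PSMB5 (β5), which interferon-exposed cells replace by PSMB9 (β1i), PSMB10 (β2i) and PSMB8 (β5i) to form the immunoproteasome. The 19S cap binds ubiquitin chains, removes them and unfolds the substrate with its ATPases. PSME1 and PSME2 form PA28, an interferon-inducible activator that opens the core without the cap, and the immunoproteasome and PA28 favour peptides that fit HLA class I molecules.

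Signal is intensity on a linear scale with background left in, so ratios of dim rows understate their changes. A detection limit was set for each column at the peak of its log2 signals plus 2.33 SD of the values below the peak. In HCT116 this was a signal of 142.2 to 145.4, in PANC1 one of 136.1 to 138.7, and 43% to 46.8% of all rows were above it. Rows at or under the limit on both sides of a comparison were left out of it, and the others are called higher or lower when the ratio was at least 1.5. The lines were normalized apart, so levels were compared within a line. Of markers of colon epithelium, EPCAM, CDH1 and CDX2 were above the limit in all 6 HCT116 columns, while CDX1, CDH17, VIL1 and LGR5 were under it in all 6. PANC1 had KRT19, KRT7, SOX9 and MUC1 above the limit in all 6 columns, and it also had a high signal of the mesenchymal gene VIM (14637 to 18144).

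Of the 49 rows, 43 in HCT116 and 46 in PANC1 were above the limit in all 6 columns of the line. PSMA8, the α subunit of the testis, and PSMB11, the β subunit of the thymus, were under it in all 12 columns. PSMB8 was also under it in all 6 HCT116 columns, with signals of 124 to 131. The rows above the limit in only some columns were PSMA7 (3 of 6), PSMB9 (4 of 6) and PSMD9 (5 of 6) in HCT116 and PSMD9 (5 of 6) in PANC1. PSMA7 encodes an α subunit present in every proteasome, yet its row read 132 to 158 in all 12 columns, so this row says little about the gene. The 46 rows of HCT116 and 47 of PANC1 that were above the limit somewhere were brought into the comparisons below, apart from PSMA7 in HCT116 at 96 h between the drugs.

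Most proteasome rows differed little with either drug. In the 8 comparisons with DMSO there were 372 pairs of row and comparison, and 9 of these reached 1.5-fold, in 9 different rows. Of all rows tested, 2.59% to 10.4% were called in each of these comparisons. None of the 9 was with C646. In HCT116 the calls were PSME1, PSMD2, PSMD1 and PSMB3, lower after 12 h of ICG-001, and PSMB7, higher after 96 h of it. In PANC1 the rows PSMB8, PSMB9 and PSME2 were higher and PSMA2 was lower after 96 h of ICG-001.

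**Figure D1:**
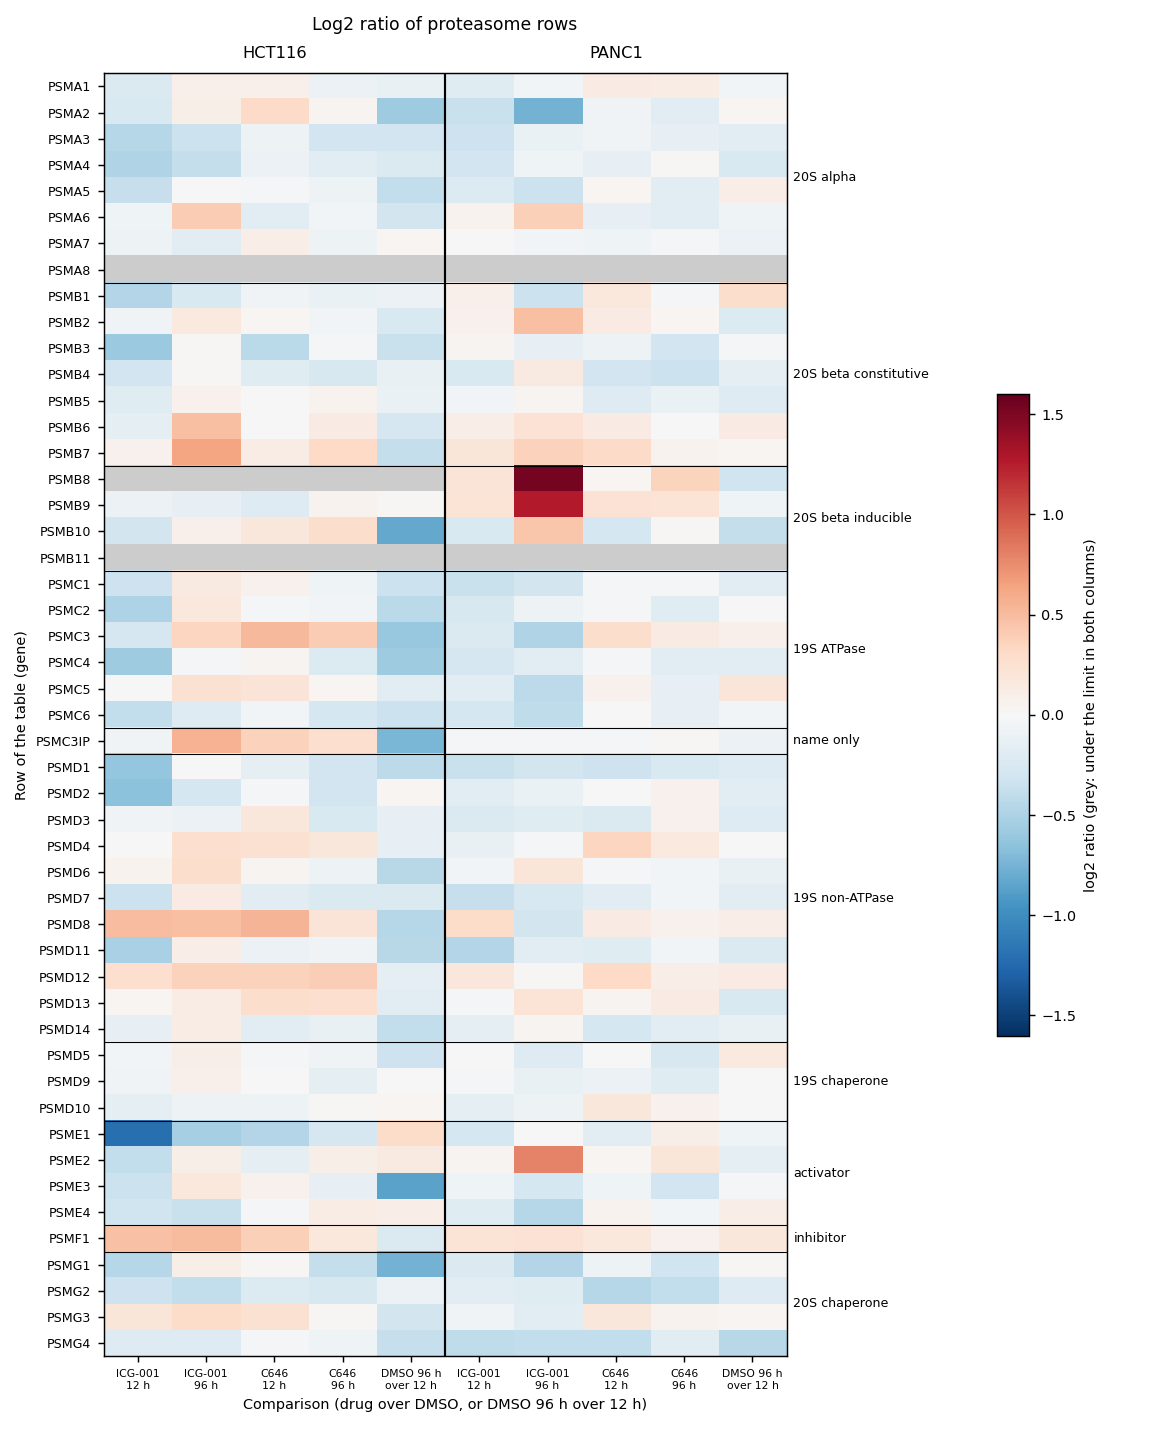
Log2 ratios (colour) of the 49 proteasome rows, grouped by their place in the complex, in the 8 comparisons of a drug with DMSO and in DMSO 96 h over 12 h. Grey cells were under the detection limit in both columns. PSMB8 (1.53) and PSMB9 (1.27) in PANC1 ICG-001 96 h and PSME1 (-1.21) in HCT116 ICG-001 12 h are the most strongly coloured cells.

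The clearest pattern lay in PANC1 after 96 h of ICG-001, among subunits of the immunoproteasome. PSMB8 read 306 and 246 in DMSO at 12 and 96 h, 352 and 708 in ICG-001, and 313 and 315 in C646. PSMB9 read 189 and 180 in DMSO, 221 and 435 in ICG-001, and 223 and 209 in C646, in the same order. For both genes the ICG-001 96 h column stood alone, above all 5 other columns, which lay between 246 and 352 for PSMB8 and between 180 and 223 for PSMB9. Against DMSO 96 h the signal was 2.88-fold higher for PSMB8 and 2.42-fold higher for PSMB9, which are log2 ratios of 1.53 and 1.27. With normexp background correction the log2 ratios became 1.99 and 1.96, since these rows are dim. More RNA per cell and more cells with the RNA cannot be told apart in such bulk samples.

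PSMB10, the remaining inducible subunit, read 2899 and 2230 in DMSO, 2445 and 3026 in ICG-001 and 2386 and 2265 in C646 in PANC1. Its log2 ratio with ICG-001 at 96 h was 0.44, under the threshold, and the DMSO 12 h column was nearly as bright as the ICG-001 96 h column. PSME2, the β subunit of PA28, read 3593 and 3220 in DMSO, 3716 and 5565 in ICG-001 and 3683 and 3695 in C646. As for PSMB8 and PSMB9, ICG-001 96 h was the brightest of the 6 columns, here by 1.73-fold over DMSO 96 h. Its partner PSME1 did not follow, with 1417 and 1356 in DMSO, 1164 and 1368 in ICG-001 and 1263 and 1443 in C646, and a log2 ratio of 0.01 with ICG-001 at 96 h. In this comparison 3 of 47 proteasome rows, or 6.38%, were called higher against 3.91% of all 17079 rows tested, and 1 row, or 2.13%, was called lower against 3.61%, with 7.52% of all rows called in either direction. The rows as a whole leaned the other way, with 31 of 47, or 66.0%, below 0 against 49.6% of all rows.

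The constitutive subunits that the inducible ones replace moved less. PSMB6 read 7031 and 7711 in DMSO, 7547 and 9036 in ICG-001 and 7673 and 7698 in C646 in PANC1, a log2 ratio of 0.23 for ICG-001 at 96 h. PSMB7 read 4340 and 4433, 4974 and 5728, and 5364 and 4621 in the same order, with a log2 ratio of 0.37. PSMB5 read 3558 and 3087, 3450 and 3180, and 3082 and 2876, with a log2 ratio of 0.04. None of these 3 was lower with ICG-001 at 96 h. PSMB6 and PSMB7 had their brightest PANC1 column in ICG-001 96 h, as PSMB8, PSMB9, PSMB10 and PSME2 did. This also held for PSMB2, another constitutive β subunit (log2 ratio 0.48), PSMA6 (0.38), PSMD6 and PSMF1.

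**Figure D2:**
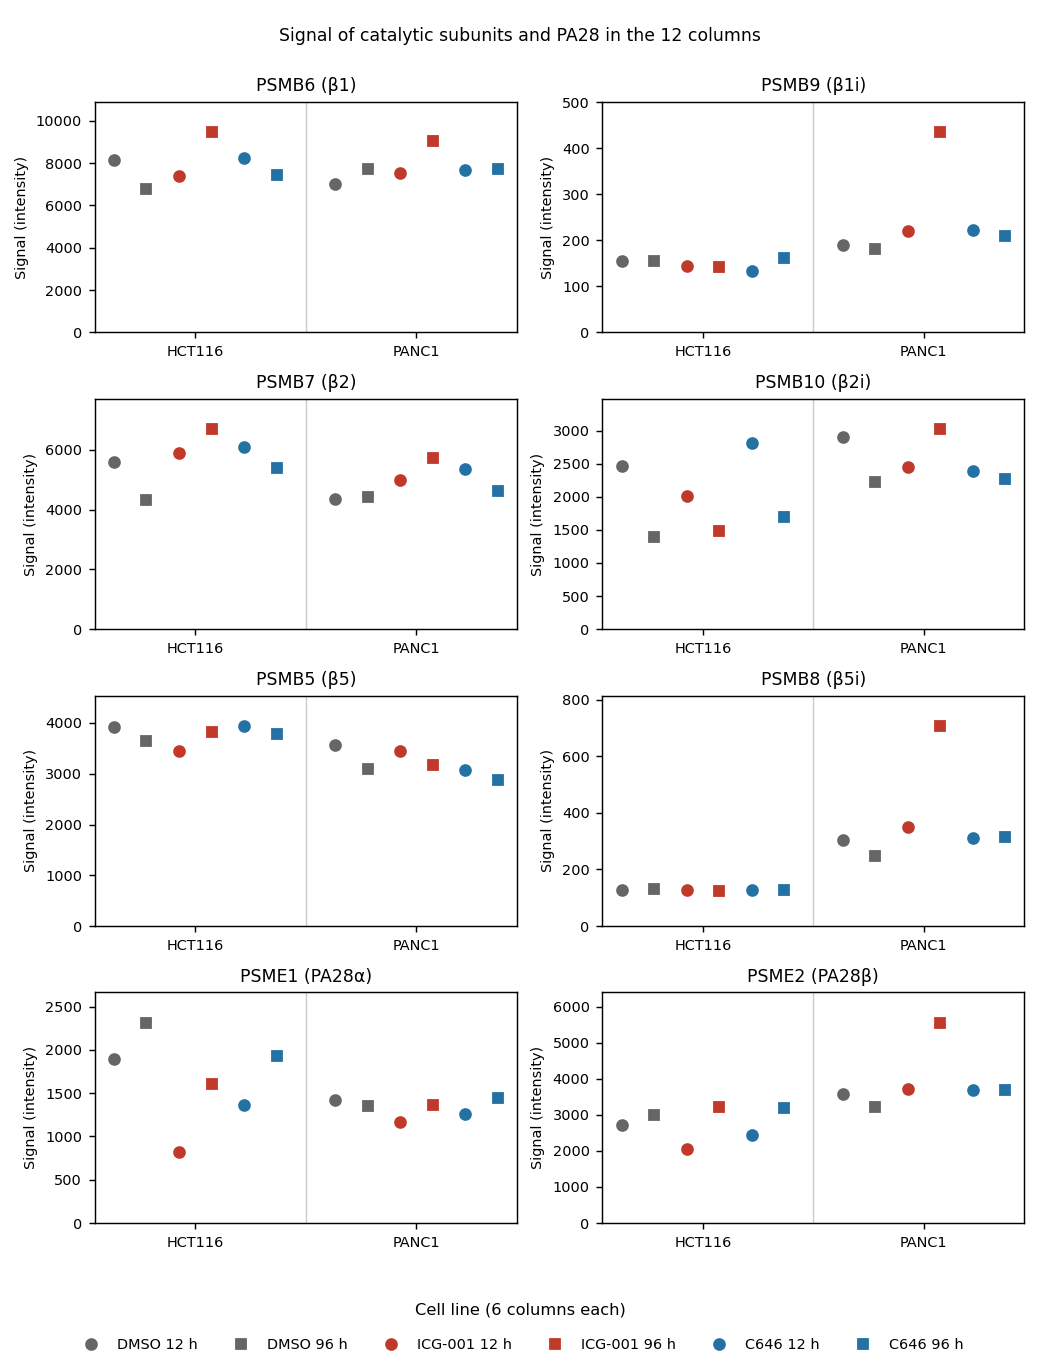
Signal (intensity, linear axes from 0) of the 3 constitutive catalytic subunits, left, beside their inducible counterparts, right, with the PA28 subunits in the lowest row. Each point is 1 column, coloured by treatment, with circles for 12 h and squares for 96 h. PSMB8, PSMB9 and PSME2 stand out in PANC1 ICG-001 96 h, and PSME1 is lowest in HCT116 ICG-001 12 h (820).

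HCT116 did not show this pattern. PSMB8 stayed under the limit, and PSMB9 read 154 and 156 in DMSO, 144 and 142 in ICG-001 and 134 and 161 in C646, all near the limit. PSMB10 read 2468 and 1395 in DMSO, 2008 and 1476 in ICG-001 and 2806 and 1689 in C646, so it was dimmer at 96 h than at 12 h in all 3 treatments. The difference between the lines was not tested.

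Against C646, which uses no DMSO column, PSMB8 was 2.25-fold, PSMB9 2.08-fold and PSME2 1.51-fold higher with ICG-001 in PANC1 at 96 h. PSMA2 (log2 ratio -0.59) and PSMC3 (-0.61) were called lower in that comparison, and these 5 of 47 rows stand beside 6.99% of all 17182 rows tested. PSMA2, an α subunit, read 655 and 667 in DMSO, 511 and 396 in ICG-001 and 630 and 596 in C646, so both ICG-001 columns were below the other 4. Its log2 ratio to DMSO at 96 h was -0.75. Against C646 it was no longer called after quantile normalization over all 12 columns (-0.55), and PSME2 was no longer called after median-centring (0.58). The comparisons with DMSO 96 h and with C646 96 h share the ICG-001 96 h column.

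Genes that work with the immunoproteasome were described with a list of 14 antigen processing genes. In PANC1 after 96 h of ICG-001, 12 of the 13 above the limit had ratios above 0 and 6 were called higher, where 3.91% of all rows tested were, and the median log2 ratio was 0.57 against 0.00 for all rows tested. HLA-B, a class I molecule, read 584 and 424 in DMSO, 611 and 1616 in ICG-001 and 591 and 628 in C646. TAP1, a subunit of the transporter that carries peptides into the ER, read 1891 and 1597, 2324 and 4601, and 2077 and 2156. As for PSMB8, the ICG-001 96 h column stood alone, 3.81-fold above DMSO 96 h for HLA-B and 2.88-fold for TAP1. IRF1 (3.23-fold), HLA-C (1.91-fold), ERAP2 (1.80-fold) and HLA-F (1.62-fold) were the others called higher. In the remaining 7 comparisons with DMSO the median of the list lay between -0.12 and 0.09, and the genes called were IRF1, higher in 6 of them, and TAPBP, a loading factor of class I molecules, lower with C646 in PANC1 at 12 h (-0.59). Markers of epithelium also differed in PANC1 with ICG-001 at 96 h, where KRT19 (-1.17), KRT8 (-1.06) and EPCAM (-0.78) were lower and MUC1 (0.79) higher, and their part in these results was not tested.

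IRF1, a transcription factor that activates PSMB8, PSMB9 and TAP1, had another time course. It read 217 and 422 in DMSO, 736 and 1363 in ICG-001 and 473 and 613 in C646 in PANC1, higher than DMSO at 12 h already, by 3.40-fold with ICG-001 and 2.19-fold with C646. It was also 1.95-fold brighter in DMSO 96 h than in DMSO 12 h. In HCT116, where PSMB8 stayed under the limit, IRF1 read 315 and 329 in DMSO, 622 and 612 in ICG-001 and 492 and 544 in C646, which was 1.98-fold and 1.86-fold above DMSO with ICG-001 and 1.56-fold and 1.65-fold with C646. NLRC5, the activator of class I genes, was under the limit in all PANC1 columns. The part of IRF1 in the higher PSMB8 and PSMB9 signals was not tested.

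**Figure D3:**
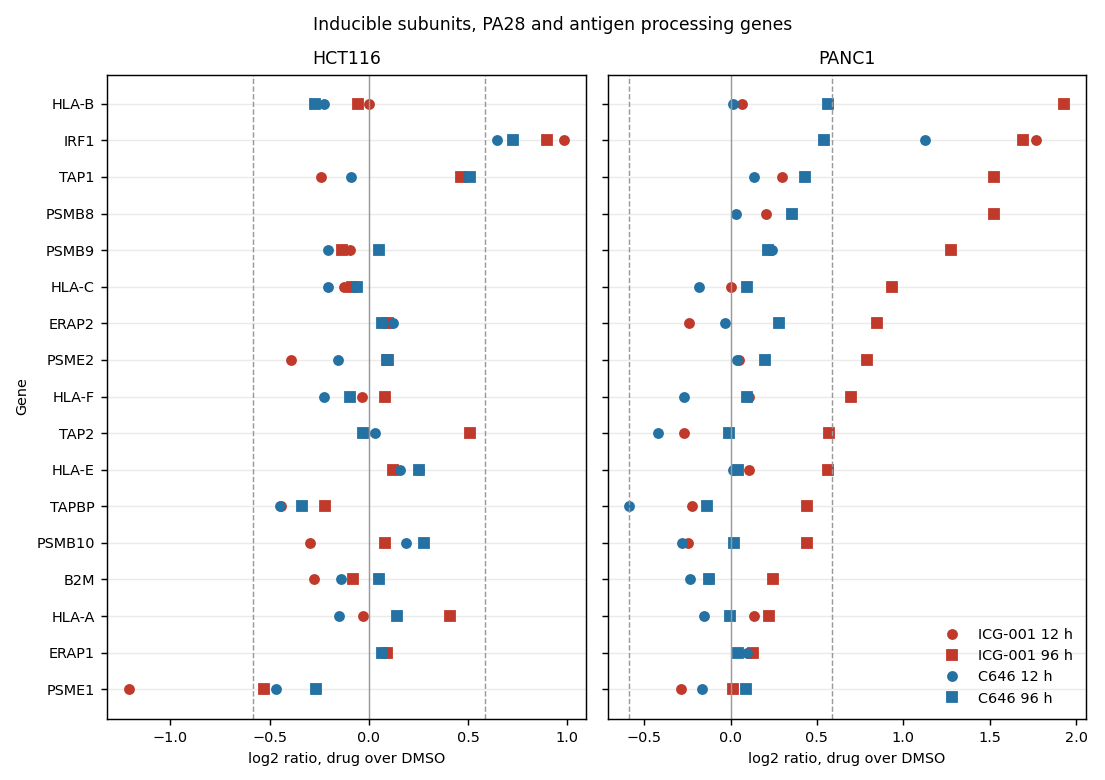
Log2 ratio of drug over DMSO for the inducible subunits, PA28 and 12 of the 13 antigen processing genes above the limit in PANC1 at 96 h, ordered by PANC1 ICG-001 96 h (red squares). Dashed lines mark 1.5-fold. HLA-B, IRF1, TAP1, PSMB8 and PSMB9 lie farthest to the right in PANC1, and among these only IRF1 is past 1.5-fold in HCT116.

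The 3 inducible subunits and PSME2 had their brightest PANC1 column in ICG-001 96 h, as did PSMA6, PSMB2, PSMB6, PSMB7, PSMD6 and PSMF1. Upstream sequences of the inducible subunits and PSME2 are shown, and they were searched for motifs of interferon-activated factors. They are from RefSeq (GRCh38.p14), 250 bases up to the first transcribed base, 5′ to 3′ on the gene's strand. Capitals mark matches, on either strand, to GAS, the interferon-gamma activated site (TTCNNNGAA), or to the ISRE core read by IRF factors (GAAA, any 2 bases, GAAA).
PSMB8, chr6:32844048-32844297, minus strand: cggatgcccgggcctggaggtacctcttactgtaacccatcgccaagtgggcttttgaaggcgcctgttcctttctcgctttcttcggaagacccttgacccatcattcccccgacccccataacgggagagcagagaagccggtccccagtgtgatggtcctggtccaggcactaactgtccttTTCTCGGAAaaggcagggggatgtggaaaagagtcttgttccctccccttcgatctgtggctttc
PSMB9, chr6:32853942-32854191, plus strand: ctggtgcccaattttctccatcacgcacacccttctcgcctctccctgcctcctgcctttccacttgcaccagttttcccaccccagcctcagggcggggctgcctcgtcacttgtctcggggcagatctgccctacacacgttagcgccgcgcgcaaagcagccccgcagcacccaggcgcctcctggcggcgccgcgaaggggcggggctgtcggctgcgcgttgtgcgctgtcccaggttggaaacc
PSMB10, chr16:67936851-67937100, minus strand: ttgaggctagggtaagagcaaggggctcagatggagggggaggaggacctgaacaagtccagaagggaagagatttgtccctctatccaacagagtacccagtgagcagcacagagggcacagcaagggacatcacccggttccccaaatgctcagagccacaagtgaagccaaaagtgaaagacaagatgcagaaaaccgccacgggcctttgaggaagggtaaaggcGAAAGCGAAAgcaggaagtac
PSME2, chr14:24146611-24146860, minus strand: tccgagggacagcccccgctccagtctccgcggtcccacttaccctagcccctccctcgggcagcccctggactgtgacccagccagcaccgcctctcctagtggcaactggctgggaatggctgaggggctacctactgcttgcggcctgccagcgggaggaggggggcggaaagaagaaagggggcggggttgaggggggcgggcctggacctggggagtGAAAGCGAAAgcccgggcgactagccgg
The PSMB8 window, which belongs to one of its annotated starts, holds 1 GAS match at 57 to 65 bases before the start. The window of its other start (chr6:32844680-32844929, minus strand) holds neither motif, and nor does that of PSME1 (chr14:24135944-24136193, plus strand). PSMB10 and PSME2 hold the same 10 letters, GAAAGCGAAA, at 12 to 21 and at 19 to 28 bases before theirs. The PSMB9 window holds neither motif, which says only that these letters are not in it. PSMB9 and TAP1 lie head to head on chromosome 6, with 487 bases between their first transcribed bases.

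Over the proteasome genes, 42 of 48 had an upstream window in the table, with 51 windows in all, since some genes have several starts. PSMA7, PSMB1, PSMB6, PSMB7, PSMD4 and PSMG3 had none. GAS was in 7 windows (13.7%) against 6.57% of all 35116 windows, and the ISRE core in 5 (9.8%) against 3.02%. GAS windows other than that of PSMB8 belonged to PSMA2, PSMB5, PSMD3, PSME3, PSMA8 and PSMC4. Of these, PSMA2 was called lower than DMSO after 96 h of ICG-001 in PANC1 (log2 ratio -0.75). PSMB5 (0.04), PSMD3 (-0.19), PSME3 (-0.28) and PSMC4 (-0.17) were not called there, while PSMA8 was under the limit. Besides PSMB10 and PSME2, the ISRE core was in windows of PSMB4, PSMG4 and PSMA4, and of these 3 genes PSMB4 (0.14), PSMG4 (-0.40) and PSMA4 (-0.07) had log2 ratios under 1.5-fold in PANC1 with ICG-001 at 96 h. The antioxidant response element core (TGACNNNGC), bound by NRF1 and NRF2, was in 13 windows (25.5%) against 10.9%, and CCAAT, bound by NF-Y, in 19 (37.3%) against 32.0%. Both strands were searched and no matches of different motifs overlapped. A match is a description and shows no binding.

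Among the HCT116 comparisons of a drug with DMSO, the broadest difference was a small shift of most rows after 12 h of ICG-001. Of 46 rows, 37, or 80.4%, were below DMSO 12 h, against 47.6% of all 17107 rows tested, and the median log2 ratio was -0.24 against 0.01 for all rows. The core (15 of 16 rows, median -0.24), the 19S cap (15 of 21, -0.13) and the other regulators (7 of 9, -0.33) lay on the same side. Within the cap the ATPases, which unfold substrates, had a median of -0.37 and the non-ATPases, the lid and base subunits, a median of -0.06. Only 4 rows, or 8.70%, were lower by 1.5-fold, against 4.14% of all rows tested, and none was higher, against 4.8%, with 8.94% of all rows called in either direction.

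PSME1, the α subunit of PA28, had the largest of these differences. It read 1893 and 2315 in DMSO at 12 and 96 h, 820 and 1608 in ICG-001 and 1367 and 1928 in C646 in HCT116. Both ICG-001 columns were below the DMSO columns and each C646 column lay between the ICG-001 and DMSO columns of its time. PSME1 was 2.31-fold lower with ICG-001 than with DMSO at 12 h, and its log2 ratio was -0.53 at 96 h. With C646 its log2 ratios were -0.47 and -0.26. Its partner PSME2 read 2713 and 3006, 2065 and 3217, and 2438 and 3206, with log2 ratios of -0.39 and 0.10 for ICG-001, so it was lower at 12 h and not at 96 h.

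PSMD2 and PSMD1, the scaffold subunits of the 19S base, were 1.58-fold and 1.54-fold lower after 12 h of ICG-001. PSMD2 read 2340 and 2384 in DMSO, 1484 and 1969 in ICG-001 and 2288 and 1930 in C646, and ICG-001 12 h was its lowest column. PSMD1 read 2009 and 1501, 1307 and 1504, and 1821 and 1213, so C646 96 h was lower still. PSMB3, a non-catalytic β subunit, read 8057 and 6317, 5349 and 6410, and 5965 and 6225. It was just past the threshold at 1.51-fold, and PSMC4, a 19S ATPase, was just under it at 1.48-fold. After quantile normalization over all 12 columns PSMB3 was no longer called (-0.49) and PSMC4 was (-0.60). With normexp PSMB3 was not called either (-0.57), while PSMC4 (-0.66) and PSMD11 (-0.69) were.

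Against C646 12 h, a comparison without the DMSO column, 41 of 46 rows were lower with ICG-001, with a median of -0.24, against 48.8% of all 17341 rows tested. PSMC3 (1.72-fold), PSME1 (1.67-fold), PSMD2 (1.54-fold) and PSMC4 (1.53-fold) were called lower, 8.70% of the rows against 2.78% of all rows lower and 6.18% called in either direction. PSMC3, also a 19S ATPase, was highest in C646 12 h (2496) and read 1749 and 1146 in DMSO, 1453 and 1454 in ICG-001 and 1525 in C646 96 h, and its log2 ratio to DMSO at 12 h was 0.51 with C646 and -0.27 with ICG-001, so the larger share of this difference lay in the C646 column. Both comparisons use the ICG-001 12 h column.

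**Figure D4:**
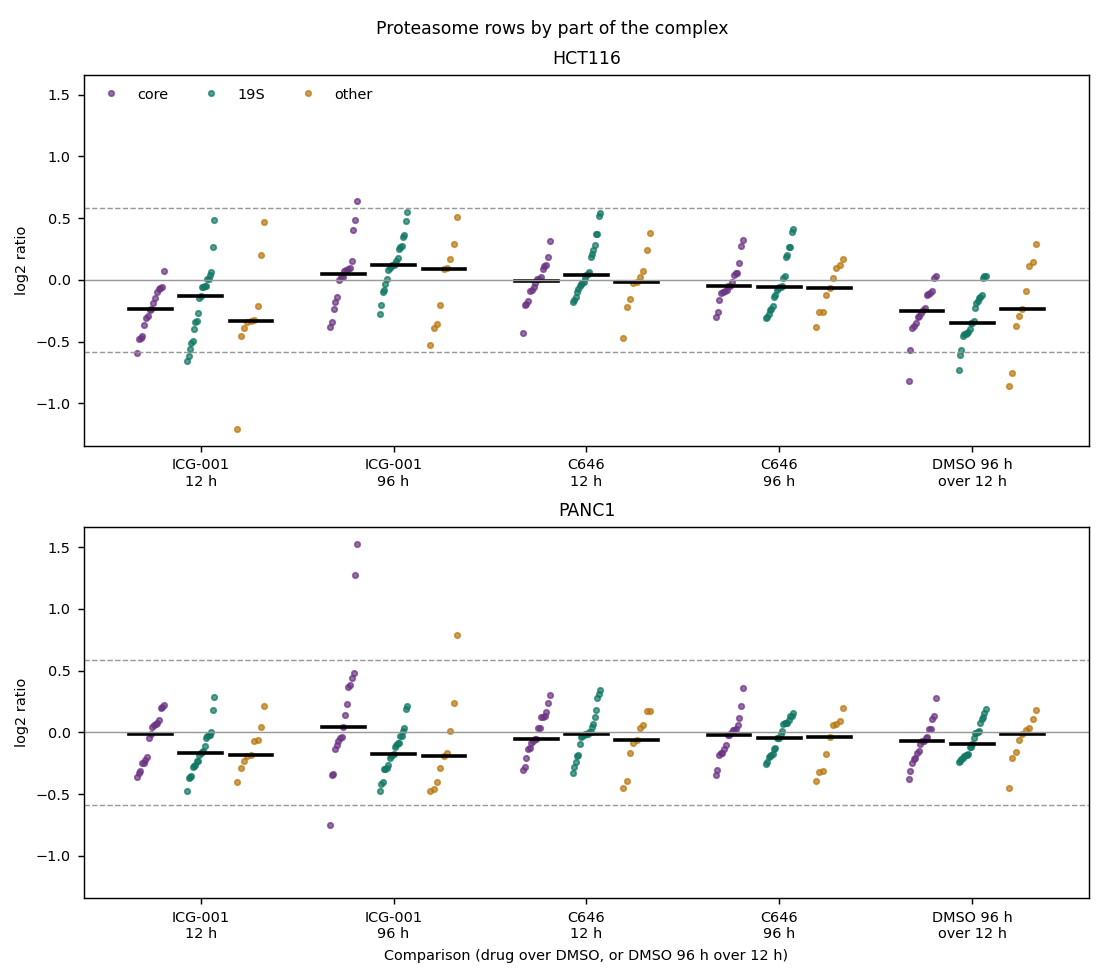
Log2 ratio of each row above the limit (points) with the median (black bar) for the core, the 19S cap and other regulators, in HCT116 (top) and PANC1 (bottom). Dashed lines mark 1.5-fold. In HCT116 the medians are below 0 for ICG-001 12 h (-0.24, -0.13, -0.33) and above 0 for ICG-001 96 h (0.04, 0.12, 0.09).

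After 96 h of ICG-001 the side was turned in HCT116. Of 46 rows 31 were above DMSO 96 h and 15 below, or 32.6% below against 50.3% of all 16922 rows tested, and the median log2 ratio was 0.09 against 0.00. PSMB7, the β2 catalytic subunit, read 5597 and 4311 in DMSO, 5889 and 6698 in ICG-001 and 6084 and 5378 in C646. It was 1.55-fold higher at 96 h, the one row of 46 called (2.17%, against 5.19% of all rows higher, 5.16% lower and 10.4% in either direction), and after quantile normalization over all 12 columns its log2 ratio of 0.53 was under the threshold. PSMB6 was next among the catalytic subunits, with 8167 and 6784 in DMSO, 7390 and 9471 in ICG-001 and 8223 and 7456 in C646, and a log2 ratio of 0.48 at 96 h. PSMB5 read 3928 and 3644, 3446 and 3819, and 3947 and 3793, with a log2 ratio of 0.07 at 96 h. As in PANC1, PSMB6 and PSMB7 had their brightest column in ICG-001 96 h.

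The DMSO columns of HCT116 also differed from each other. In DMSO 96 h 38 of 46 rows, or 82.6%, were below DMSO 12 h, against 46.7% of all 16430 rows tested, with a median of -0.28 against 0.02, and 5 rows, or 10.9%, were lower by 1.5-fold, against 1.58% of all rows lower and 3.16% called in either direction. They were PSME3, the nuclear PA28γ activator (852 to 470, 1.81-fold), PSMB10 (2468 to 1395, 1.77-fold), PSMG1, a chaperone of core assembly (2581 to 1531, 1.69-fold), PSMC3IP, the recombination factor (285 to 172, 1.66-fold), and PSMC3 (1749 to 1146, 1.53-fold). The 12 h and 96 h cultures also differed in their density when treatment began, and the 96 h cultures were passaged, so time and culture density cannot be told apart. The part of the DMSO columns in the turn of the ICG-001 ratios was not tested, and single rows differed. PSMD1 in ICG-001 read 1307 at 12 h and 1504 at 96 h, while DMSO went from 2009 to 1501. PSMB6 went from 7390 to 9471 in ICG-001 and from 8167 to 6784 in DMSO. PSMA4 went from 4393 to 4014 in ICG-001 and from 6138 to 5242 in DMSO. In PANC1 31 of 47 rows were lower in DMSO 96 h, or 66.0% against 48.1% of all 16196 rows, with a median of -0.07 and none called, where 1.34% of all rows were.

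C646 left most proteasome rows close to DMSO. In HCT116 the median log2 ratio was 0.01 at 12 h and -0.06 at 96 h, and in PANC1 it was -0.01 and -0.02. No proteasome row was called in these 4 comparisons, where 4.27%, 3.07%, 6.85% and 4.13% of all rows tested were called. The rows farthest from DMSO with C646 were PSMD8, a 19S lid subunit (0.54), and PSME1 (-0.47) in HCT116 at 12 h, and PSMC3 (0.41) and PSMG1 (-0.38) at 96 h. In PANC1 they were PSMD4, the ubiquitin receptor of the cap (0.35), and PSMG2, a chaperone of core assembly (-0.45), at 12 h, and PSMB8 (0.36) and PSMG2 (-0.39) at 96 h.

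In PANC1 most rows were also lower after 12 h of ICG-001. Of 47 rows 34, or 72.3%, were below DMSO 12 h, against 49.8% of all 16759 rows tested, with a median of -0.16 against 0.00, and none was called, against 2.59%. All 6 ATPases were lower at both times, with medians of -0.27 at 12 h and -0.35 at 96 h, and all 4 chaperones of core assembly were too, with medians of -0.21 and -0.29. Of all rows tested, 49.8% were below DMSO at 12 h and 49.6% at 96 h, and the share below at both times was not computed. The row farthest down at 12 h was PSMD11, a lid subunit (-0.47), and the row farthest up was PSMD8 (0.29). At 96 h the core had a median of 0.04 and the 19S cap a median of -0.17, and without the inducible subunits the core median was -0.04. Between the drugs in PANC1 at 12 h none of 47 rows was called, against 2.55% of all 17323 rows, and in HCT116 at 96 h none of 45 was, against 6.53% of all 17057 rows.

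Some rows kept to one side of DMSO throughout. PSMB7, PSMD12, a lid subunit, and PSMF1, the inhibitor of the core called PI31, were above DMSO in all 8 comparisons, and PSMA3, PSMC6, PSMG2 and PSMG4 were below it in all 8. These are 3 and 4 of the 46 rows tested in all of them, where 9.97% and 11.8% of all 13374 rows behaved so. Within HCT116 8 of 46 rows were above and 9 below in all 4 comparisons, beside 20% and 22.9% of all rows, and within PANC1 7 of 47 were above and 15 below, beside 19.7% and 24.8%. The comparisons of a time point share their DMSO column. PSMF1 read 526 and 447 in DMSO, 730 and 635 in ICG-001 and 686 and 502 in C646 in HCT116, and 568 and 643, 660 and 758, and 640 and 675 in PANC1. Its largest log2 ratios were 0.47 and 0.51 with ICG-001 in HCT116, under the threshold. PSME4, the PA200 activator of the nucleus, read 1579 and 1706 in DMSO, 1262 and 1329 in ICG-001 and 1560 and 1855 in C646 in HCT116, and 2021 and 2182, 1770 and 1590, and 2104 and 2121 in PANC1. In both lines the ICG-001 columns of PSME4 were below the other 4, with log2 ratios to DMSO of -0.32 and -0.36 for HCT116 and of -0.19 and -0.46 for PANC1. PSME3 had log2 ratios from -0.34 to 0.17 with either drug.

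Several genes that act around the proteasome reached 1.5-fold. NFE2L1 encodes NRF1, the transcription factor that raises proteasome genes when proteasome activity is short, and it read 656 and 624 in DMSO, 1530 and 1536 in ICG-001 and 734 and 658 in C646 in HCT116. ICG-001 columns were thus 2.33-fold and 2.46-fold above DMSO and the other columns did not overlap with them. In the same columns the proteasome rows had medians of -0.24 and 0.09. In PANC1 NFE2L1 read 1231 and 1090, 1215 and 1470, and 1105 and 1244, and was not called. Of the 11 genes of this list, which regulate transcription of proteasome genes, the others called against DMSO were limited to FOXM1, 1.73-fold lower with C646 in PANC1 at 12 h. NFE2L1 was 1 of 9 list genes tested (11.1%) at each time in HCT116, where 4.8% and 5.19% of all rows tested were higher. FOXM1 was also 1 of 9, where 6.85% of all rows tested were called in either direction.

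ZFAND2A, which encodes AIRAP, a proteasome-associated protein induced by arsenite and proteotoxic stress, was higher with ICG-001 in both lines. It read 622 and 386 in DMSO, 1651 and 1496 in ICG-001 and 840 and 536 in C646 in HCT116, and 907 and 703, 1445 and 1859, and 854 and 880 in PANC1. With ICG-001 it was 2.65-fold and 3.87-fold higher in HCT116 and 1.59-fold and 2.65-fold higher in PANC1. UBA1, the main enzyme that activates ubiquitin, went the other way, with 3073 and 3661 in DMSO, 1787 and 1969 in ICG-001 and 1968 and 2475 in C646 in HCT116, and 3914 and 3509, 2765 and 1624, and 2539 and 2555 in PANC1. All 8 treated columns of UBA1 were below the DMSO columns of their line. It was called lower in 5 of the 8 comparisons, up to 2.16-fold in PANC1 with ICG-001 at 96 h.

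Of the 17 genes for ubiquitin and its shuttling, 2 were called higher and 1 lower with ICG-001 in HCT116 at 12 h, and the same numbers at 96 h, beside 4.8% and 4.14% of all rows at 12 h and 5.19% and 5.16% at 96 h. Among the others called against DMSO were RAD23B and UBQLN4, shuttle factors that were higher with ICG-001 in HCT116 at 12 h (1.52-fold) and at 96 h (1.51-fold), and in PANC1 with C646 at 12 h VCP (1.58-fold higher), the segregase that extracts substrates. Of 10 partners of the proteasome outside the PSM names, PAAF1, an assembly chaperone of the 19S base, was the one called against DMSO. It read 453 and 418 in DMSO, 595 and 808 in ICG-001 and 416 and 458 in C646 in HCT116, 1.93-fold higher with ICG-001 at 96 h. It was 1 of 10 partners tested there (10%), where 5.19% of all rows tested were higher and 10.4% were called in either direction. POMP, the maturation factor of the core, read 5062 and 4293, 4249 and 3882, and 4545 and 3451, and was not called.

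**Figure D5:**
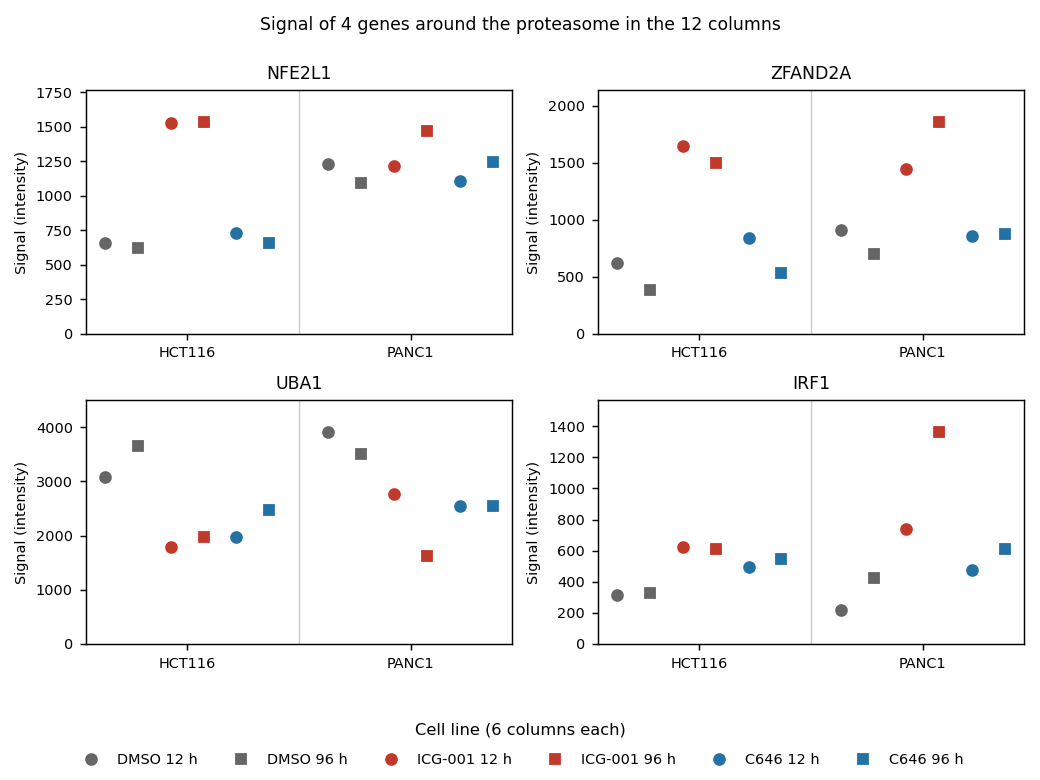
Signal (intensity, linear axes from 0) of NFE2L1, ZFAND2A, UBA1 and IRF1 in the 12 columns, each point 1 column, coloured by treatment, with circles for 12 h and squares for 96 h. NFE2L1 is highest in the HCT116 ICG-001 columns (1530 and 1536), and ZFAND2A is highest in the ICG-001 columns of both lines.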

How the data were processed

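RNA of HCT116 and PANC1 cells was measured on Illumina HumanHT-12 v4 BeadChips. In GenomeStudio the authors quantile-normalized signal intensity, did not subtract background, averaged replicate arrays and deposited 1 intensity per gene name and column. No detection p-value entered the analysis. The mean absolute difference of sorted log2 signals was 0.0037 to 0.0093 within a line and 0.063 to 0.066 between lines. The genome build behind the array's gene names is not given in the sources used here, and upstream sequences are from RefSeq on GRCh38.p14.

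Log2 signals were subtracted between columns in 14 comparisons, of which 8 were with DMSO, 4 between the drugs and 2 between DMSO columns. With 1 column per group no test was run. All 49 rows matched a current RefSeq symbol. The members, gene lists and motifs were chosen with earlier results of these data known. Genes named with values were the catalytic subunits, their inducible counterparts, PSME and PSMF rows, rows called in any comparison, the extremes of each comparison with DMSO, rows under the limit throughout a line, and listed genes called against DMSO. Others were added after their values were seen: PSMA7, PSMC4, PSMD12, PSMA3, PSMC6, PSMG4, PSMB4, PSMA4, PSMD9, PSMA6, PSMB2, PSMD6, PSMD3, NLRC5 and POMP. Some genes of the lists are not reported here.

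Results were recomputed at folds of 1.2 and 2, without the limit, with it at 5 SD, with normexp (offset 16), with median-centred ratios and with quantile normalization over all 12 columns. The procedure was tested on simulated data. Python 3.11.15, numpy 2.4.6, pandas 2.3.3, scipy 1.17.1, matplotlib 3.10.9, R 4.3.3 and limma 3.58.1 were used.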

Additional observations from a re-analysis of the deposited data

How the results depend on the processing

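No paired analysis was possible because each group has 1 column, a mean over arrays, and for the same reason no replicate could be left out. The 14 median log2 ratios moved by at most 0.05 under the 5 alternatives that apply to them and kept their sign, although those of C646 over DMSO were within 0.06 of 0, and no called row changed sign. The numbers of called rows depended mainly on the fold threshold, and a fold of 1.5 left few rows well past it. At 1.2-fold the numbers of called rows in HCT116 were 25 and 16 for ICG-001 over DMSO at 12 and 96 h (4 and 1 at 1.5-fold), 9 and 12 for C646 over DMSO (0 and 0), 20 and 14 for ICG-001 over C646 (4 and 0) and 25 for DMSO 96 h over 12 h (5). In PANC1 they were 12 and 20 for ICG-001 over DMSO (0 and 4), 10 and 6 for C646 over DMSO (0 and 0), 10 and 16 for ICG-001 over C646 (0 and 5) and 4 for DMSO 96 h over 12 h (0). At 2-fold, 1 and 0 rows were called in HCT116 for ICG-001 over DMSO, 0 for ICG-001 over C646 at 12 h and 0 between the DMSO columns, and 2 rows in PANC1 for ICG-001 at 96 h over DMSO and 2 over C646. With normexp, 1 row was called for C646 at 12 h in HCT116 (PSMB9, -0.63), 4 for ICG-001 at 96 h in HCT116 (PSMB7, PSMC3IP, PSMF1 and PSMA7), 1 for ICG-001 over C646 at 96 h in HCT116 (PSMD9, 0.61), 8 between the HCT116 DMSO columns and 1 for ICG-001 at 12 h in PANC1 (PSMD11, -0.61). With quantile normalization over all 12 columns 0 rows were called for ICG-001 at 96 h in HCT116. Shares of all rows tested were computed only at 1.5-fold with the values as deposited, so the numbers at other settings cannot be set against all rows. The causes of these changes were not tested. PSMA7, PSMB9 and PSMD9 lie close to the limit in HCT116, where signal over background limits what can be read.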

Other observations

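PSMC4, a 19S ATPase, stood apart between the lines, and was chosen after its values were seen. HCT116 gave signals of 658 to 1172 over its 6 columns, and PANC1 gave 10694 to 13741. The lines were normalized apart, and after quantile normalization over all 12 columns the lowest PANC1 column was still 9.71-fold above the highest HCT116 column. PSMB8 was also brighter in all PANC1 columns (246 to 708) than in any of HCT116 (124 to 131), where it was under the limit. Whether the PSMC4 probe reads both lines alike was not tested. None of 46 proteasome rows kept to one side of DMSO throughout HCT116 and to the opposite side throughout PANC1, as 1.93% of 13374 rows did.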
